A study of Homo sapiens with 9 samples.

Results

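MTAP, methylthioadenosine phosphorylase, and the 5 enzymes taken to follow it in methionine salvage, MRI1, APIP, ENOPH1, ADI1 and GOT1, were followed over 3 groups of HT1080 cells, a human fibrosarcoma line. The members were chosen by gene symbol, as genes of this pathway, and the choice was made with earlier results of these data known. They were represented on the Affymetrix expression array by 15 probe sets, groups of short probes against 1 transcript, of which 9 had values on all 9 arrays. All 6 genes had at least 1 such probe set, out of 9453 genes with values.

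There were 3 arrays of untreated MTAP- cells, labelled negative for MTAP, 3 of untreated MTAP+ cells, labelled positive, and 3 of MTAP+ cells that had received 10 µM MT-DADMe-ImmA for 48 hours before harvest. MT-DADMe-ImmA is a transition-state analogue that binds MTAP tightly and blocks it. All groups were grown in the same medium, no vehicle was named for the untreated cells, and the arrays of a group were biological replicates per the series' design text. The sources used here do not say how the MTAP+ cells were made or whether either kind of cell was 1 clone.

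Methylthioadenosine is left over each time spermidine or spermine is made. MTAP splits it into adenine and methylthioribose-1-phosphate. The isomerase MRI1 and the dehydratase APIP turn the sugar phosphate into a keto compound, the enolase-phosphatase ENOPH1 makes acireductone from it, and the dioxygenase ADI1 opens that to the keto acid of methionine. An aminotransferase then adds the amino group, and GOT1, the cytosolic aspartate aminotransferase, is among those able to do so. The MTAP gene lies beside the tumour suppressor genes CDKN2A and CDKN2B and is often lost with them in tumours.

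The stretches of 250 bases before the transcription start are shown for ADI1, ENOPH1 and APIP. These are the salvage enzymes after MTAP that passed the test given below in at least 1 comparison, APIP only at the edge of the threshold. They come from RefSeq on GRCh38.p14, where all 6 members had an entry, and run 5′ to 3′ on the strand of the gene. Capitals mark matches, on either strand, to the GC box GGGCGG, the CCAAT box CCAAT and the E-box CACGTG.
ADI1, chr2:3519532-3519781, minus strand: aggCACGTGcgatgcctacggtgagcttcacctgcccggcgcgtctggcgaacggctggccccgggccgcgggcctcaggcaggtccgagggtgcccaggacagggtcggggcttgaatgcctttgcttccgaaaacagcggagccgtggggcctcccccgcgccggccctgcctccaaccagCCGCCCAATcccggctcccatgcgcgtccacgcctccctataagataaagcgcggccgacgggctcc
ENOPH1, chr4:82430340-82430589, plus strand: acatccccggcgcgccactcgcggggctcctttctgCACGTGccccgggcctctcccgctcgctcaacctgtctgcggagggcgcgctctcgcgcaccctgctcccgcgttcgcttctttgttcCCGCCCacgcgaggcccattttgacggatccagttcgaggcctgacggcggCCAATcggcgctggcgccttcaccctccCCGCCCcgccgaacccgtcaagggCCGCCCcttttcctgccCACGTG
APIP, chr11:34916380-34916629, minus strand: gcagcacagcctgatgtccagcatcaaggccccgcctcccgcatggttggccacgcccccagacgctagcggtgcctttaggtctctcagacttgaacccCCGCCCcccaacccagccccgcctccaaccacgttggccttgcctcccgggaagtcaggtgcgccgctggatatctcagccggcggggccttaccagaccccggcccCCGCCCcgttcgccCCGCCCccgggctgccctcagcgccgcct

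The ADI1 stretch held 1 GC box, which overlapped its CCAAT box at 67 to 59 bases before the start, and 1 E-box. The ENOPH1 stretch held 3 GC boxes, 1 CCAAT box and 2 E-boxes, 1 of them in the last 6 bases before the start. The APIP stretch held 3 GC boxes and neither of the other motifs. Over all 35116 RefSeq stretches of this length, 42.6% held the GC box, 32.0% the CCAAT box and 6.34% the E-box. The other motifs searched, on both strands, were CCGGAAG (in 8.52% of all stretches), TGACGTCA (1.65%), TTTGAA (13.3%), TATAAA (10.7%) and the NRF1 motif (1.03%), and none of them was in the windows shown. The motifs were chosen with the expression results known. The stretches of ADI1, ENOPH1 and APIP were rich in G and C, at 71.2%, 71.2% and 71.6%, against a median of 58% over all stretches on either strand. Those of the members not shown, MRI1, GOT1 and MTAP, held 66.8%, 58% and 50%. Each of them also held the GC box. MRI1 had an E-box as well, GOT1 the CCAAT box, and MTAP the CCAAT box and TATAAA. These matches describe the letters in the windows, and binding was not measured.

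Values are RMA values on the log2 scale, so that a difference of 1 is a doubling. Array medians lay between 8.24 and 8.38, and correlations between arrays over probe sets, which are not independent, were 0.956 to 0.988 within groups and 0.924 to 0.981 between groups. In the ACTB control probe sets the 5′ end minus the 3′ end, which becomes more negative as RNA breaks down, was -2.50 ± 0.90 in MTAP- cells, -1.43 ± 0.45 in MTAP+ cells and -1.64 ± 0.66 with inhibitor (log2, SD, n = 3). MTAP- replicate 3 read lowest, at -3.52, against -1.81 and -2.17 in MTAP- replicates 1 and 2. In the GAPDH control probe sets it read -1.06, against -0.27 and -0.51. Its array median of 8.24 was the lowest too. Of 6 mesenchymal markers 5 had values, with group means from 9.25 to 14.02, S100A4 being the exception. None of the 5 epithelial, 4 blood, 4 endothelial, 2 liver and 2 neural markers represented on the array had values. Differences are given with the standard error (SE) of a limma fit over all 17466 probe sets with values, and a probe set was called changed at a Benjamini-Hochberg adjusted p below 0.05 over all of them. Where groups are said not to overlap, this is a description only, and no share of all probe sets that do so is given. Full separation of 3 arrays from 3 cannot reach a two-sided permutation p below 0.1.

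MTAP mRNA matched the labels on each of the 9 arrays. Probe set 211363_s_at read 11.63, 11.74 and 11.37 in MTAP+ replicates 1 to 3, 11.21, 11.30 and 11.10 with inhibitor, and 4.41, 4.25 and 5.02 in MTAP- cells. Probe set 216685_s_at read 11.71, 11.63 and 11.56 in MTAP+ cells, 11.55, 11.29 and 11.33 with inhibitor, and 4.07, 3.86 and 3.96 in MTAP- cells. The deposited table listed values where at least 3 arrays reached 6.64, so MTAP was listed because of the cells that carry it, and its MTAP- values lie below the level the authors retained. Counted from 6.64, MTAP was at least 30.6-fold and at least 31.7-fold higher in MTAP+ than in MTAP- cells by these probe sets, and at least 23.6-fold and at least 26.9-fold higher with inhibitor. The other 4 MTAP probe sets had no values.

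The inhibitor acts on the MTAP protein. For its mRNA, on both probe sets the inhibitor-treated arrays all lay below the MTAP+ arrays, by -0.38 ± 0.19 and -0.24 ± 0.11 (log2 ± SE). Neither passed the test (limma adjusted p = 0.241 and 0.193). The 95% intervals ran from -0.80 to 0.05 and from -0.49 to 0.0044.

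**Figure D1:**
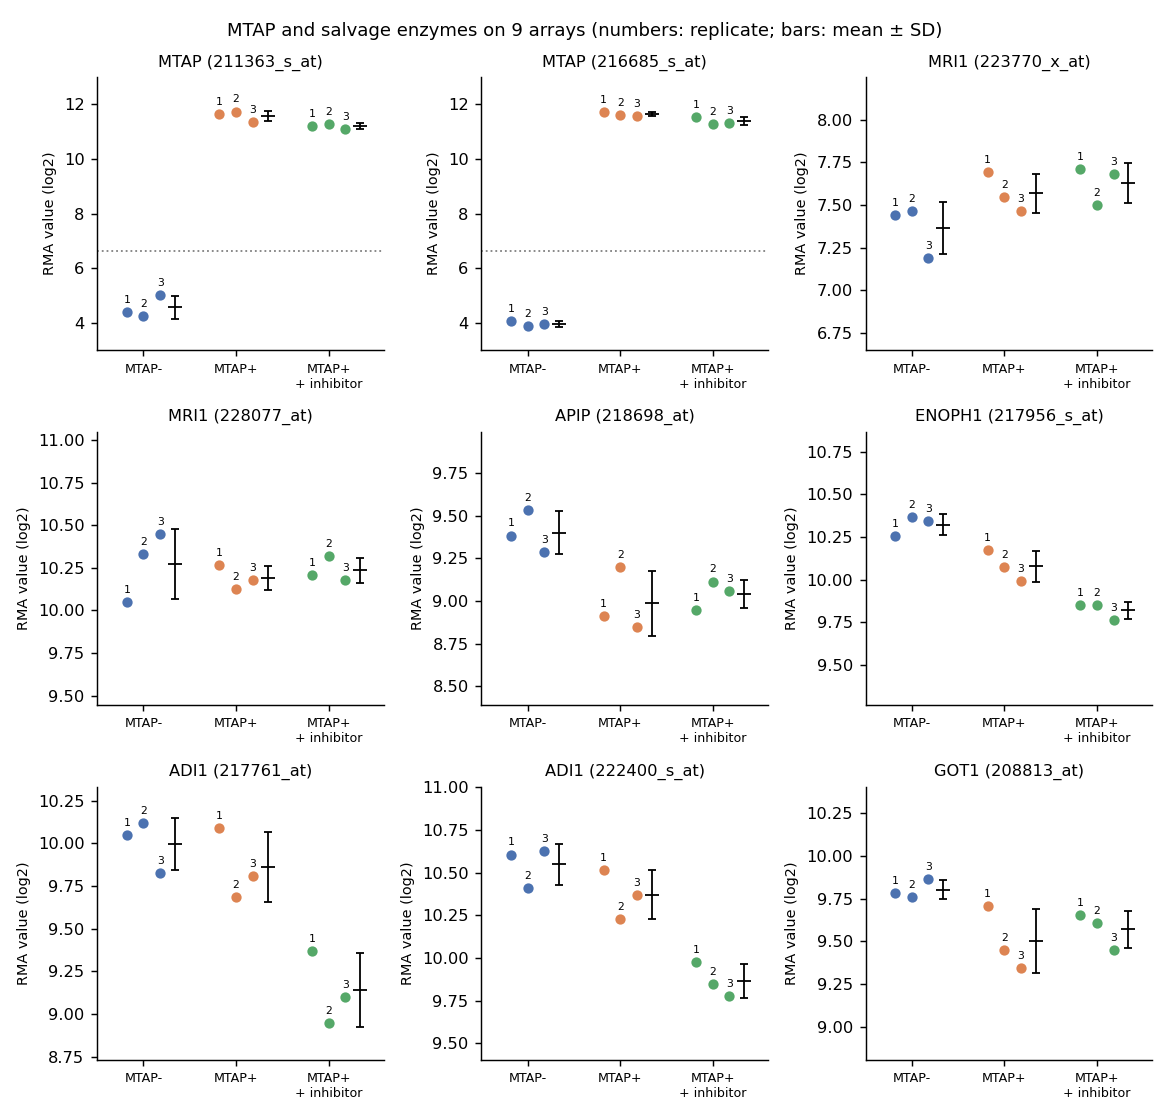
RMA values (log2, vertical axis) of the 9 member probe sets on each array, by group, with the replicate number above each point and the mean ± SD (n = 3) as a bar. The dotted line in the MTAP panels is 6.64, the MTAP panels span 10 log2 units and the others 1.6; the ADI1 arrays with inhibitor lie below all other arrays on both probe sets.

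The next question was whether the other salvage enzymes differed between MTAP+ and MTAP- cells. APIP was 1.33-fold lower in MTAP+ cells and was the only one of the 7 other salvage probe sets to be called. ENOPH1, GOT1, ADI1 and MRI1 did not pass the test. In this comparison 14.8% of all probe sets were called, 10.0% higher and 4.78% lower, so 1 call among 7 probe sets is near the background. Of the called probe sets 67.7% were higher, against 50.1% after centring the arrays on their medians and 50.3% after repeated quantile normalization. The median difference of the 7 was -0.18 (log2), against 0.04 over all probe sets tested.

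APIP, which also carries the name of its binding partner APAF1, read 9.38, 9.54 and 9.29 in MTAP- cells and 8.91, 9.20 and 8.85 in MTAP+ cells on 218698_at. The groups did not overlap, MTAP- replicate 3 and MTAP+ replicate 2 lying nearest to each other. The difference was -0.42 ± 0.12 (log2 ± SE, adjusted p = 0.0497). It was a call at the edge of the threshold. It did not pass with any of the arrays left out except MTAP+ replicate 2, where it passed (adjusted p = 0.0180, and 0.0693 to 0.139 for the other arrays). The mean of the ACTB control stood lower in MTAP- cells, with the lowest value in replicate 3. With the ACTB control as a covariate the APIP difference was -0.55 and did not pass (adjusted p = 0.0682). The part of RNA quality in the difference was not tested further. Fitted on these groups alone, the APIP difference did not pass either (adjusted p = 0.110). With arrays centred on their medians it passed (adjusted p = 0.0261), as it did with the replicate number as a block (0.0216). Over all 20 alternatives its call was kept in 10 and lost in 10. The other APIP probe set had no values.

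ENOPH1 read 10.25, 10.37 and 10.35 in MTAP- cells and 10.17, 10.07 and 9.99 in MTAP+ cells on 217956_s_at. All MTAP+ arrays were lower, but the difference of -0.24 ± 0.09 did not pass (log2 ± SE, adjusted p = 0.111, 95% interval -0.46 to -0.03). GOT1 read 9.78, 9.76 and 9.86 against 9.71, 9.45 and 9.35 on 208813_at. Here too the groups did not overlap, with a difference of -0.30 ± 0.12 (adjusted p = 0.115, interval -0.56 to -0.04).

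ADI1 read 10.05, 10.12 and 9.83 in MTAP- cells and 10.09, 9.69 and 9.81 in MTAP+ cells on 217761_at. Its probe set 222400_s_at read 10.61, 10.41 and 10.63 against 10.52, 10.23 and 10.37. The groups overlapped on both, with differences of -0.13 ± 0.15 (adjusted p = 0.578) and -0.18 ± 0.12 (adjusted p = 0.321). MRI1 read 10.05, 10.33 and 10.45 in MTAP- cells, 10.26, 10.13 and 10.18 in MTAP+ cells, and 10.21, 10.32 and 10.18 with inhibitor on 228077_at. The groups overlapped throughout. In MTAP+ cells this probe set differed by -0.08 ± 0.12 (adjusted p = 0.670) and 223770_x_at by 0.20 ± 0.12 (adjusted p = 0.271). The ending _x_at marks probe sets whose probes can also bind other transcripts.

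**Figure D2:**
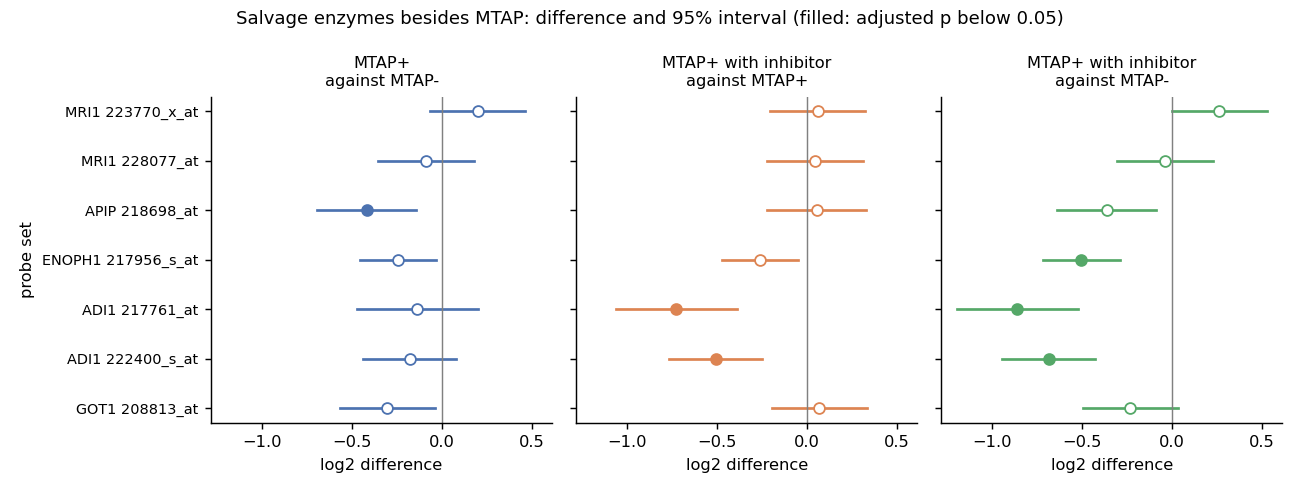
Log2 differences (points, horizontal axis) with 95% intervals (lines) of the 7 salvage probe sets besides MTAP in the 3 comparisons, filled where the adjusted p was below 0.05. ADI1 is filled in both comparisons of inhibitor-treated cells, ENOPH1 in the one with MTAP- cells, and APIP in the one of MTAP+ with MTAP- cells.

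The second comparison set MTAP+ cells after 48 hours of inhibitor against untreated MTAP+ cells. ADI1, the dioxygenase next to the end of the pathway, fell on both of its probe sets, 1.65-fold on 217761_at and 1.42-fold on 222400_s_at. No other salvage enzyme was called. ENOPH1, which makes the substrate of ADI1, did not pass, and APIP, MRI1 and GOT1 overlapped between the groups. Of all probe sets 10.3% were called, 4.86% higher and 5.48% lower, against 2 of the 7 salvage probe sets, which target the same gene. The median difference was 0.05 for the 7 and -0.02 for all probe sets (log2). The same replicate numbers in these groups deviated together, and with the number as a block 2726 probe sets were called in place of 1805, the 2 of ADI1 among them.

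ADI1 read 10.09, 9.69 and 9.81 in MTAP+ cells and 9.37, 8.95 and 9.10 with inhibitor on 217761_at. Each inhibitor-treated array was lower than its same-numbered MTAP+ array, with differences of -0.72, -0.74 and -0.71. The difference was -0.72 ± 0.15 (log2 ± SE, adjusted p = 0.0176), and 2.02% of all probe sets had a lower value. On 222400_s_at the arrays read 10.52, 10.23 and 10.37 against 9.98, 9.85 and 9.78. The difference was -0.51 ± 0.12 (adjusted p = 0.0251), with 6.12% of probe sets lower. The groups did not overlap on either probe set, and on both the inhibitor-treated arrays were also below every MTAP- array.

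ADI1 was also called after centring and with the ACTB control. With arrays centred on their medians it was -0.71 (adjusted p = 0.0166) and -0.49 (0.0324), and with the ACTB control as a covariate -0.72 (0.0290) and -0.52 (0.0359). It kept its direction but lost its call on both probe sets when any of 3 arrays was left out. Without MTAP+ replicate 1 the values were -0.61 (adjusted p = 0.0571) and -0.43 (0.0808). Without inhibitor-treated replicate 2 they were -0.63 (0.0622) and -0.50 (0.0764). Without inhibitor-treated replicate 3 they were -0.70 (0.0787) and -0.46 (0.110), and the call count over all probe sets then fell from 1805 to 452.

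ENOPH1 read 10.17, 10.07 and 9.99 in MTAP+ cells and 9.85, 9.85 and 9.76 with inhibitor. The groups did not overlap, and the difference of -0.26 ± 0.09 did not pass (log2 ± SE, adjusted p = 0.113, 95% interval -0.47 to -0.05). APIP read 8.95, 9.11 and 9.06 with inhibitor, within the spread of the MTAP+ arrays, and differed by 0.06 ± 0.12 (adjusted p = 0.816, interval -0.22 to 0.33). GOT1 read 9.65, 9.61 and 9.45 with inhibitor and differed by 0.07 ± 0.12 (adjusted p = 0.754, interval -0.19 to 0.33). For MRI1 the differences were 0.05 ± 0.12 on 228077_at (adjusted p = 0.847) and 0.06 ± 0.12 on 223770_x_at (0.780).

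**Figure D3:**
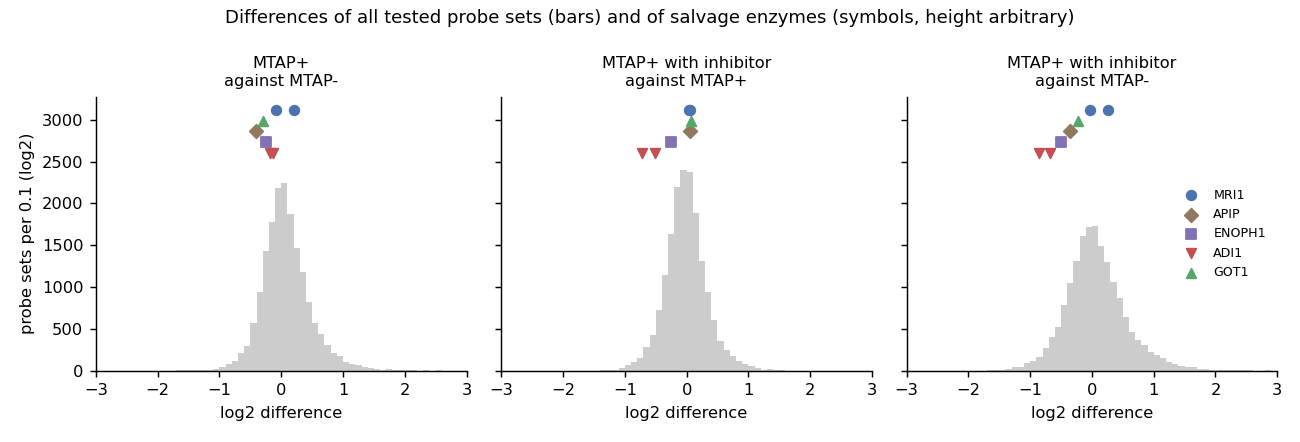
Number of probe sets per 0.1 of log2 difference (grey bars, vertical axis) in the 3 comparisons, with the salvage enzymes besides MTAP as symbols at their own difference; the height of a symbol carries no value. Differences beyond 3 are not drawn; both ADI1 symbols lie in the left flank in the comparison of inhibitor-treated with MTAP+ cells, where 2.02% and 6.12% of probe sets were lower.

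The last comparison set inhibitor-treated MTAP+ cells against MTAP- cells. MTAP protein and its activity were not measured on these arrays. ADI1 and ENOPH1, consecutive steps of the pathway, were lower in inhibitor-treated cells, ADI1 by 1.81-fold and 1.61-fold on its probe sets and ENOPH1 by 1.42-fold. APIP was 1.28-fold lower and just missed the threshold. Of all probe sets 30.7% were called, 17.4% higher and 13.3% lower, and 3 of the 7 salvage probe sets were called, all lower. The median difference was -0.36 for the 7 and 0.03 for all probe sets (log2). This comparison shares its arrays with the other comparisons, so its values restate theirs.

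ADI1 differed by -0.86 ± 0.15 on 217761_at (log2 ± SE, adjusted p = 0.00270) and by -0.68 ± 0.12 on 222400_s_at (adjusted p = 0.00223). ENOPH1 differed by -0.50 ± 0.09 (adjusted p = 0.00390), and 9.89% of all probe sets lay lower. These 3 passed in every alternative run, with adjusted p of at most 0.0215. For ENOPH1 the order of the group means was MTAP- (10.32 ± 0.06, SD, n = 3), MTAP+ (10.08 ± 0.09) and inhibitor-treated (9.82 ± 0.05). No array of one group crossed into the next, but only the outer groups differed by the test.

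APIP differed by -0.36 ± 0.12 (log2 ± SE, adjusted p = 0.0502). It passed in 12 of 20 alternatives, with adjusted p from 0.0192 to 0.150. Both MTAP+ groups thus read lower than MTAP- cells for APIP, at 8.99 ± 0.19 and 9.04 ± 0.08 against 9.40 ± 0.13 (SD, n = 3). GOT1 lay at 9.80 ± 0.06 in MTAP- cells, 9.50 ± 0.19 in MTAP+ cells and 9.57 ± 0.11 with inhibitor, and differed by -0.23 ± 0.12 from MTAP- cells with inhibitor (adjusted p = 0.166). MRI1 differed by -0.04 ± 0.12 (adjusted p = 0.830) on 228077_at and by 0.26 ± 0.12 (adjusted p = 0.118) on 223770_x_at, where the inhibitor-treated arrays all lay above the MTAP- arrays.

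Probe sets of the same gene could be set against each other for 3 members. The ADI1 probe sets followed each other over the 9 arrays (Pearson r = 0.92), as did those of MTAP (r = 0.998). The r of MTAP rests in part on the MTAP- values, which lie below 6.64 on both probe sets. Those of MRI1 did not follow each other (r = -0.45). The _x_at probe set of MRI1 read 7.37 ± 0.15, 7.57 ± 0.11 and 7.63 ± 0.12 in MTAP-, MTAP+ and inhibitor-treated cells (log2, SD, n = 3), and the other MRI1 probe set 10.27 ± 0.21, 10.19 ± 0.07 and 10.24 ± 0.07. Over 9 arrays ENOPH1 and ADI1 moved alike (r = 0.87 and 0.91 for the ADI1 probe sets), and APIP and ADI1 less so (r = 0.35 on both). These correlations describe arrays that share their grouping and replicate numbers.

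Genes next to the pathway were taken at the probe set with the highest mean. Among the other aminotransferases that can act on the keto acid of methionine, KYAT1, also known as glutamine transaminase K, rose 1.95-fold with inhibitor. It read 7.86, 7.76 and 8.12 in MTAP+ cells, 8.78, 8.88 and 8.98 with inhibitor, and 7.75, 7.68 and 7.75 in MTAP- cells. The inhibitor-treated arrays stood above all others, with a difference from MTAP+ cells of 0.97 ± 0.12 (log2 ± SE, adjusted p = 0.00248). The call held in all 20 alternatives, with adjusted p from 8.85e-04 to 0.0190. Of 5 aminotransferases with values, 1 was called higher and 0 lower with inhibitor in MTAP+ cells, where 4.86% and 5.48% of all probe sets were. The median difference was 0.35 against -0.02 over all probe sets. KYAT3 (0.35 ± 0.12), BCAT1 (0.59 ± 0.19) and BCAT2 (0.24 ± 0.11) did not pass (adjusted p = 0.107, 0.0795 and 0.192). TAT and IL4I1 had no values. GOT2, the mitochondrial aspartate aminotransferase, overlapped between these groups, with a difference of 0.13 ± 0.11 (adjusted p = 0.517). It was lower in MTAP+ than in MTAP- cells by -0.39 ± 0.11 (adjusted p = 0.0484), and this call was lost in 12 of 20 alternatives, including each of the 9 arrays left out in turn (adjusted p = 0.0668 to 0.148).

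The enzymes that make polyamines, and with them methylthioadenosine, were called lower or not called. SRM, spermidine synthase, fell with inhibitor by -0.52 ± 0.13 (log2 ± SE, adjusted p = 0.0380) and was the 1 of 4 called there, where 5.48% of all probe sets were called lower. Against MTAP- cells 3 of 4 were called lower with inhibitor, where 13.3% of all probe sets were. The median differences of the 4 were -0.26 and -0.58, against -0.02 and 0.03 over all probe sets (log2). Its arrays read 10.30, 10.18 and 9.95 in MTAP+ cells and 9.64, 9.70 and 9.52 with inhibitor. The groups did not overlap, but the call was lost without MTAP+ replicate 1 (adjusted p = 0.116) or 2 (0.0799), and without inhibitor-treated replicate 1 (0.0940), 2 (0.0775) or 3 (0.148). ODC1, ornithine decarboxylase, was lower in MTAP+ than in MTAP- cells (-0.43 ± 0.12, adjusted p = 0.0415). It was also lower with inhibitor than in MTAP- cells (-0.77 ± 0.12, adjusted p = 0.00161). With inhibitor in MTAP+ cells it differed by -0.33 ± 0.12, which did not pass (adjusted p = 0.110). The call of MTAP+ against MTAP- cells was lost in 9 of 20 alternatives and that of inhibitor-treated against MTAP- cells in 0. The arrays whose removal ended the former were MTAP- replicates 1 and 3, MTAP+ replicates 2 and 3, and each inhibitor-treated array (adjusted p = 0.0620 to 0.125). AMD1, which makes the aminopropyl donor, was called against MTAP- cells with inhibitor (-0.42 ± 0.14, adjusted p = 0.0437), a call lost in 8 of 20 alternatives. These include leaving out MTAP- replicate 1 or 3, MTAP+ replicate 3 or any inhibitor-treated array (adjusted p = 0.0599 to 0.129). The other AMD1 probe set with values, 201196_s_at, looked at afterwards, differed there by -1.09 ± 0.15 (adjusted p = 9.27e-04). It was also called lower in MTAP+ than in MTAP- cells (adjusted p = 0.0249), but not with inhibitor in MTAP+ cells (0.0836). SMS, spermine synthase, was not called in any comparison.

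PNP, the purine nucleoside phosphorylase related to MTAP, read 10.66, 10.69 and 10.61 in MTAP- cells, 10.43, 10.24 and 10.07 in MTAP+ cells, and 9.94, 9.87 and 9.72 with inhibitor. Each group lay below the one before it. The difference between the outer groups was -0.81 ± 0.12 (log2 ± SE, adjusted p = 0.00105), between MTAP+ and MTAP- cells -0.41 ± 0.12 (adjusted p = 0.0435), and with inhibitor in MTAP+ cells -0.40 ± 0.12, which did not pass (adjusted p = 0.0565). The call of MTAP+ against MTAP- cells was lost in 10 of 20 alternatives, including every array left out except MTAP+ replicate 1 (adjusted p = 0.0592 to 0.124). PRPS1, which makes the sugar phosphate that adenine is joined to, fell with inhibitor by -0.45 ± 0.12 (adjusted p = 0.0471). This call was lost in 12 of 20 alternatives, among them every array left out except MTAP- replicate 2 and MTAP+ replicate 3 (adjusted p = 0.0531 to 0.182). The other PRPS1 probe set with values, 208447_s_at, differed by -0.27 and overlapped between these groups (adjusted p = 0.194). PRPS2, of the same list, was not called in any comparison. With inhibitor in MTAP+ cells it differed by 0.22 on 203401_at and -0.54 on 230352_at (adjusted p = 0.226 and 0.271). Of the 4 genes of this list, PNP, PRPS1, PRPS2 and APRT, 1 was called lower there, where 5.48% of all probe sets were. APRT, which salvages the adenine, was not called in any comparison. MAT2A and MAT2B, which use methionine to make S-adenosylmethionine, were not called either, and MAT1A had no values.

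Of the known binding partners of these enzymes, MMP14, a membrane-bound matrix metalloprotease whose tail ADI1 binds, was higher in MTAP+ than in MTAP- cells. It read 10.21, 10.19 and 9.55 in MTAP- cells, 10.90, 10.79 and 10.75 in MTAP+ cells, and 11.22, 11.40 and 11.21 with inhibitor. The groups did not overlap, MTAP- replicate 3 was the lowest array, and the differences were 0.83 ± 0.17 with MTAP (log2 ± SE, adjusted p = 0.0117), 0.46 ± 0.17 with inhibitor in MTAP+ cells (adjusted p = 0.114), and 1.30 ± 0.17 between the outer groups (adjusted p = 6.66e-04). With the ACTB control as a covariate the first of these was 0.53 and did not pass (adjusted p = 0.0851). Of the 4 MMP14 probe sets with values, 2 were called higher in MTAP+ than in MTAP- cells, where 10.0% of all probe sets were. Those not called were 202827_s_at (1.43 ± 0.54, adjusted p = 0.104) and 217279_x_at (1.06 ± 0.32, adjusted p = 0.0516). CASP9, which acts with APAF1, was not called in any comparison, and APAF1 had no values.

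**Figure D4:**
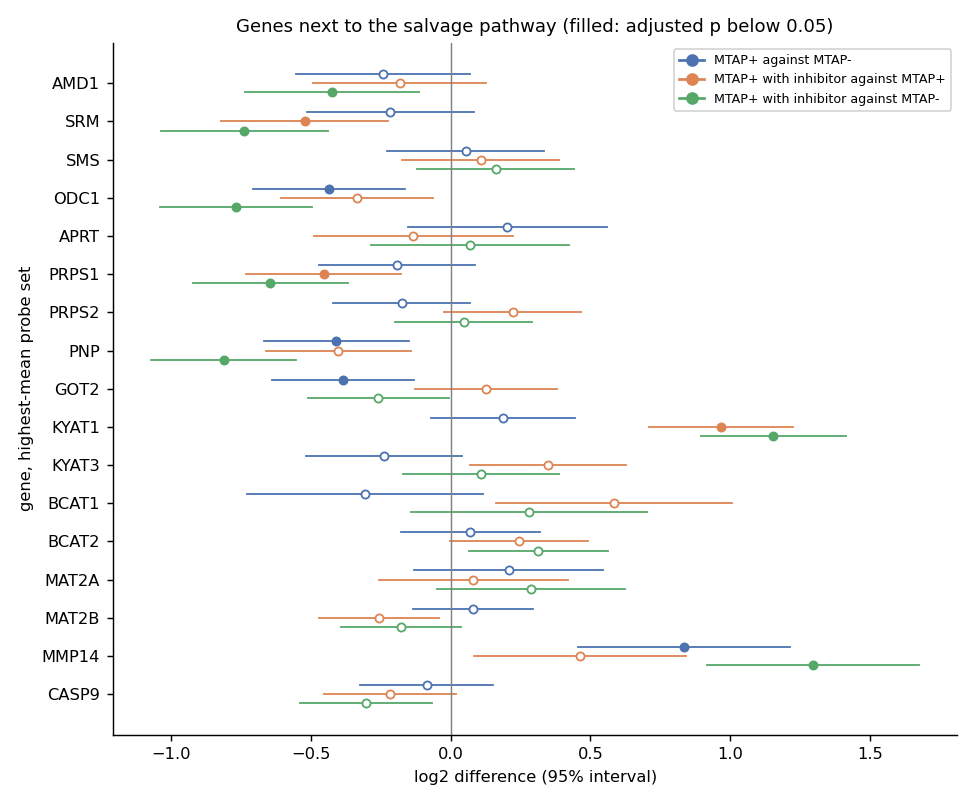
Log2 differences (points, horizontal axis) with 95% intervals (lines) of the 17 genes next to the salvage pathway that had values, in the 3 comparisons, filled where the adjusted p was below 0.05. KYAT1 stands to the right with inhibitor, at 0.97 and 1.15, and SRM, ODC1, PRPS1 and PNP to the left in the comparison with MTAP- cells.

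Of 12 genes listed as neighbours of MTAP on chromosome 9, KLHL9, FOCAD and MLLT3 had values, and 0 of these 3 were called in any comparison (adjusted p from limma, 0.130 to 0.890). At an unadjusted p below 0.05 there was 1, KLHL9 with inhibitor against MTAP+ cells. The other 9, CDKN2A and CDKN2B among them, had no values in any group, so these arrays give no level for them. A gene without values here is one the authors did not list, and absence of its mRNA was not shown.

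The genes most like a member were found by Pearson correlation over the 9 arrays among 9452 other genes, as a description. For MTAP they were TGFBR2, SIAE and VEGFC (each r = 0.992), TCN1 (0.990) and PTGES (0.988). These r values rest in part on levels below 6.64 in MTAP- cells, those of MTAP and the group means of SIAE, TCN1 and PTGES. For APIP they were IL7R (0.979), MYL12B (0.973) and BASP1 (0.972). For ENOPH1 they were TMEM70 (0.996), BUB3 (0.988) and PNP (0.987), and for ADI1 FOXM1 (0.990), PGAM1 (0.987) and POP7 (0.986). These genes were picked for their pattern, so no test of them is given here.

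**Figure D5:**
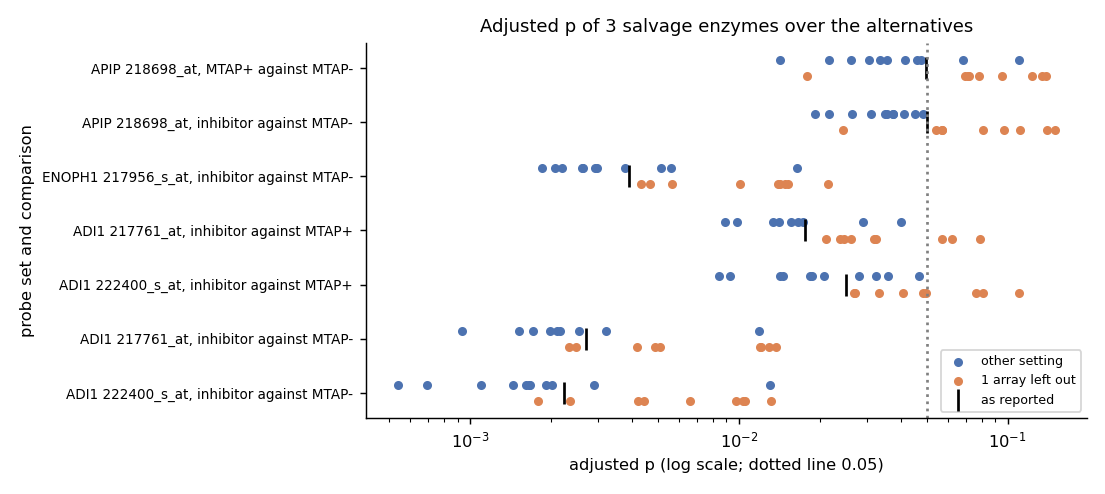
Adjusted p (horizontal log axis, dotted line at 0.05) of APIP, ENOPH1 and ADI1 as reported (black bars), with 1 array left out (orange) and under the other settings (blue). ENOPH1 and ADI1 against MTAP- cells stay left of the line throughout, while ADI1 against MTAP+ cells crosses it for 3 arrays and APIP lies on both sides.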

How the data were processed

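Expression was measured on 9 Affymetrix arrays of HT1080 cells. The deposited values are log2 expression values from RMA, a method named in the submitters' processing notes. The sources used here give neither its version nor its settings. The method subtracts background, equalises the arrays' distributions and summarises each probe set. Of 54675 probe sets 37201 had no values; all those listed reached 6.64 (log2 of 100) on at least 3 arrays.

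Genes were named through the platform annotation. All 6 member symbols were found in the RefSeq gene table, with the same Entrez numbers as in the annotation. After leaving out 8 controls, 17466 probe sets were fitted with limma 3.58.1 in R 4.3.3, with the 3 groups as levels over all 9 arrays and eBayes at its defaults. P-values were adjusted by Benjamini-Hochberg within each comparison. Precision is limited by 3 arrays per group. The fit was tested on simulated data.

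All member probe sets are reported, and connected genes at their highest-mean probe set, from lists fixed by place in the pathway. Other probe sets of connected genes, where given, were looked at afterwards. The members and lists were chosen with earlier results of these data known. Same-numbered arrays deviated together for MTAP+ with MTAP- cells (r = 0.28, 0.22 and 0.25 over probe sets) and for inhibitor-treated with MTAP+ cells (0.70, 0.59 and 0.32), so the numbers were taken to pair them, but not for inhibitor-treated with MTAP- cells (0.20, 0.0078 and -0.0057). Alternatives covered scaling, filters, probe set choice, covariates, weights, the replicate block and leaving out each array.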

Additional observations from a re-analysis of the deposited data

How the results depend on the processing

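Over all settings, 482 of 519 values of member probe sets kept direction and side of the threshold, 16 lost a call, 12 gained one and 9 changed sign. The sign changes were in differences that never passed. For MRI1 228077_at, MTAP+ against MTAP- became 0.059 with the mean of its probe sets and 0.0020 with the ACTB covariate, and ran from -0.20 to 0.0014 with 1 array left out, the latter without MTAP- replicate 3. Its inhibitor-treated against MTAP- difference became 0.11, 0.0086 with array weights and 0.031 with the covariate, and ran from -0.15 to 0.047. With 1 array left out the inhibitor differences in MTAP+ cells ran from -0.014 to 0.16 for APIP and from -0.0078 to 0.17 for GOT1, both negative without MTAP+ replicate 3.

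For MTAP+ against MTAP- cells, 2586 called probe sets became 3779 with the replicate block and 3087 with array weights. They became 1337 with 1 probe set per gene above the 40th percentile (7011 tested), 851 with the ACTB covariate and 1385 with only the 2 groups fitted. With 1 array left out they ran from 1458 to 2809. The 1 salvage call became 0 with that covariate and with 2 groups, and was 0 to 1 with 1 array left out. With centring the median of all moved from 0.04 to -0.03. For the inhibitor in MTAP+ cells, 1805 became 2726 with the replicate block and 1042 with 1 probe set per gene, and 452 to 1836 with 1 array left out. The 2 salvage calls became 1 where ADI1 counted once, with 1 probe set per gene or their mean, and 0 to 2 with 1 array left out. For inhibitor-treated against MTAP- cells, 5361 became 2614 with 1 probe set per gene and 3282 with their mean, where fewer were tested, and 3562 to 6032 with 1 array left out; salvage calls ran from 3 to 4. The replicate block added APIP there (adjusted p = 0.0216) and ended the call of AMD1 (0.0525), though those numbers did not pair the arrays, and it changed no other call of a member.

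For connected genes only the 14 called results were followed, an alternative chosen after seeing the data. Of their 280 values 222 kept the call, 58 lost it and 0 changed sign. As each was called to begin with, none could gain a call. Where a single array was left out of a group, the spread was pooled over the rest. Values below 6.64 carry no order, which limits MTAP in MTAP- cells to a bound. The cause of the other shifts was not tested.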

Other observations

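These values were chosen after they were seen. The other AMD1 probe set with values, 201196_s_at, read lower in MTAP+ than in MTAP- cells by -0.63 ± 0.15 (log2 ± SE, limma adjusted p = 0.0249) and lower with inhibitor than in MTAP- cells by -1.09 ± 0.15 (adjusted p = 9.27e-04), against -0.24 and -0.42 on the probe set of highest mean. BCAT1, a branched-chain aminotransferase, had 4 probe sets with values, and 226517_at was higher with inhibitor than in MTAP+ cells by 0.79 ± 0.20 (adjusted p = 0.0347), while the other 3 ranged from 0.07 to 0.59 and did not pass. All 4 MMP14 probe sets, which target the same gene, were called higher with inhibitor than in MTAP- cells, by 1.02 to 1.85. In that comparison 17.4% of all probe sets were called higher.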
